A study of Mus musculus with 35 samples.

Results

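The small leucine-rich proteoglycans (SLRPs) were followed here through 10 genes, Dcn, Lum, Kera, Epyc, Bgn, Ogn, Aspn, Omd, Fmod and Prelp, which were taken by their symbols out of the 52636 genes of the count files. SLRPs are secreted proteins of the extracellular matrix, with a core of leucine-rich repeats to which most members attach chains of dermatan, chondroitin or keratan sulfate. Many of them bind collagen fibrils and set how the fibrils assemble, and decorin and biglycan also bind growth factors such as TGF-β. In the brain, decorin is best known from the fibroblasts of the meninges and of the vessel walls, so that the question was whether Dcn follows fibroblast genes or neurons in the amygdala.

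Cells of the anterior and the posterior amygdala had been cut out of stained sections of female mice by laser capture. The mice were either C57BL/6J, an inbred strain, or B6D2F1N hybrids, and lived in standard housing (the control environment) or, from postnatal day 77, with a playground for 1 h per day. All of them, in both strains and both housings, had been trained from postnatal day 70 and then tested for cognitive judgement bias. Training took 37 to 90 days, depending on how fast a mouse learned. The study describes training as seemingly longer in the inbred strain, above all in standard housing, and these mice as older. It found neither difference significant. Training length and age were not used in any comparison, and their part in the differences between the strains was not tested. Each library is the poly(A) RNA of 1 portion of 1 mouse. In standard housing, 4 C57BL/6J and 5 B6D2F1N mice gave both portions. In enriched housing, the anterior portion came from 2 C57BL/6J and 5 B6D2F1N mice and the posterior one from 4 and 6. This gives 35 libraries of 19 mice, of which 16 mice had both portions. The portions carry the names of the labels. The study's methods place the posterior portion nearer to bregma than the anterior one, which is the reverse of the anatomical order. The labels were not tested for this, and exchanged labels would turn the sign of every difference between the portions.

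The libraries held 16938534 to 27352623 counts on genes, which limits the precision for members of few counts. Xist, the RNA of the inactive X chromosome of females, was at 54.8 to 201.6 CPM (counts relative to the library size, scaled by TMM) in 33 libraries. It had 0 counts in both libraries of B6D2F1N standard mouse 1, and 4 Y-linked genes had at most 1 count in any library. This mouse therefore went against its group in Xist, and the results that rest on it are given with and without it. Of the 15 fibroblast markers, 14 were tested in the portion fits, and Foxc2 had a median of 0 CPM in both portions.

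Dcn, Lum, Kera and Epyc lie one after the other on the plus strand of chromosome 10 (GRCm38). Dcn (ENSMUSG00000019929) spans 97479609 to 97518143, Lum (ENSMUSG00000036446) 97565128 to 97572703, Kera (ENSMUSG00000019932) 97606879 to 97613692 and Epyc (ENSMUSG00000019936) 97644068 to 97682454. The gaps between neighbours are 46984, 34175 and 30375 bases. Aspn, Omd and Ogn form another row on chromosome 13, in which Aspn spans 49544443 to 49567565, Omd 49582462 to 49592822 and Ogn 49608046 to 49624501. Prelp (minus strand, 133910304 to 133921414) and Fmod (134037254 to 134048277) are neighbours on chromosome 1, and Bgn is alone on the X chromosome from 73483602 to 73495933. The strand setting of the counting was not stated, and genes of the opposite strand overlap Epyc (Gm10754), Ogn, Aspn and Omd (all within the reach of Cenpp) and Prelp (Gm15851), so that reads of such pairs may not have been told apart.

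Because the genes are relatives, the coding exons were searched for the stretches of 72 bases, the read length, in which 2 members are most alike. Over the 45 pairs the closest stretches differed at 15 to 35 of 72 bases. The lines below show, for Dcn and Kera, whose levels are compared further on, for the nearest relative of Dcn (Bgn) and for the closest pair of all (Fmod and Prelp), both stretches from 5′ to 3′, with the bases that differ in capitals.
Dcn, exon 3 of its coding transcript, chr10:97495026-97495097, plus strand: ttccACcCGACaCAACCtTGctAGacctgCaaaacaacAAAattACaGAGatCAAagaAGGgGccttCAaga
Kera, exon 2, chr10:97608989-97609060, plus strand: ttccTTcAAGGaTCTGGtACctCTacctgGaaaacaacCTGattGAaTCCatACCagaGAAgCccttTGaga
Dcn, exon 7, chr10:97513657-97513728, plus strand: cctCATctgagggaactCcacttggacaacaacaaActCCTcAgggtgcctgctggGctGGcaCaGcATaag
Bgn, exon 7, chrX:73493258-73493329, plus strand: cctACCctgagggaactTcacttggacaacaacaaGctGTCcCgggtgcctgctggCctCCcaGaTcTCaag
Fmod, exon 2, chr1:134040442-134040513, plus strand: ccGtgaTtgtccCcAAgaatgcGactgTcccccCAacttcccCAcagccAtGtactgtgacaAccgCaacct
Prelp, exon 2, chr1:133915137-133915208, minus strand: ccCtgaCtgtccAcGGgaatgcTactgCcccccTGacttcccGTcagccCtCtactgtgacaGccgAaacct
Dcn and Kera differed at 33 of 72 bases where they are closest, Dcn and Bgn at 16 and Fmod and Prelp at 15. No stretch of 72 bases in a transcript of Dcn, Lum, Kera, Bgn, Ogn, Aspn or Fmod matched a transcript of any other gene with up to 2 mismatches. Such matches were found for 39.1% of the stretches of Epyc (Gm10754), 7.97% of those of Prelp (Gm15851) and 4.9% of those of Omd (263 genes), so that the values of these 3 genes are less certain.

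Decorin, the collagen-binding proteoglycan that carries a single dermatan or chondroitin sulfate chain, had the highest median level of the 10 genes in the posterior portion. This did not hold for every posterior library, since Dcn went down to 1.49 CPM per kb of exon, against 8.37 for the lowest of Prelp. Per kb of exon, the median level of Dcn was 3.75 CPM in 16 anterior libraries and 119.7 CPM in 19 posterior ones. In the posterior portion, the order of the medians per kb went on with Prelp (13.6), Aspn (4.90), Lum (4.58), Kera (3.13), Bgn (1.41), Ogn (1.38), Fmod (0.60), Epyc (0.49) and Omd (0.45 CPM per kb). The ranges of each of these neighbours overlapped. In the anterior portion, Prelp (6.68) and Aspn (6.30 CPM per kb) had higher medians than Dcn, and Kera had a median of 0.

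**Figure D1:**
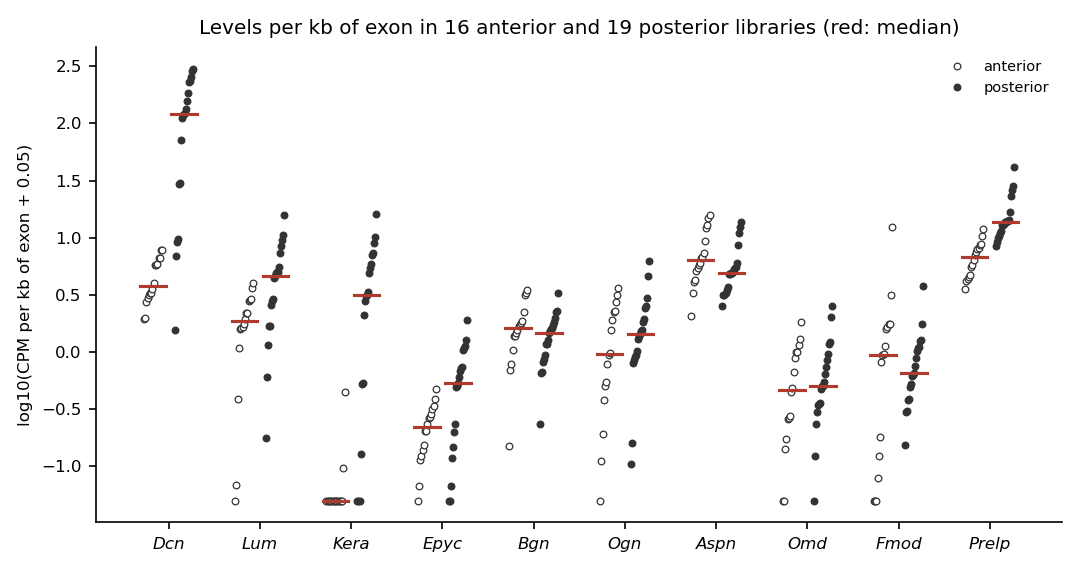
Level of each of the 10 genes in 16 anterior (open) and 19 posterior (filled) libraries, as log10 of CPM per kb of exon plus 0.05, with the median in red. In the posterior libraries Dcn reached 301.3 CPM per kb, while Kera was at 0 in most anterior libraries.

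Between the portions, 3 of the 10 genes differed in C57BL/6J mice and 3 in B6D2F1N mice, in both strains Dcn, Kera and Prelp, all with higher levels in the posterior amygdala. For comparison, 3.64% of the 25751 genes tested in C57BL/6J mice and 4% of the 27761 tested in B6D2F1N mice passed the threshold, an adjusted p of at most 0.05 in edgeR's quasi-likelihood test with the mouse as a block. The median log2 fold change of the 10 genes was 1.39 in C57BL/6J and 0.64 in B6D2F1N mice, against 0.01 and 0.15 over all genes tested. Levels in bulk RNA cannot tell apart fewer cells of a type and less RNA per cell. The portion comparison of each strain and the values of the members are shown side by side in the plot of fold changes.

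**Figure D2:**
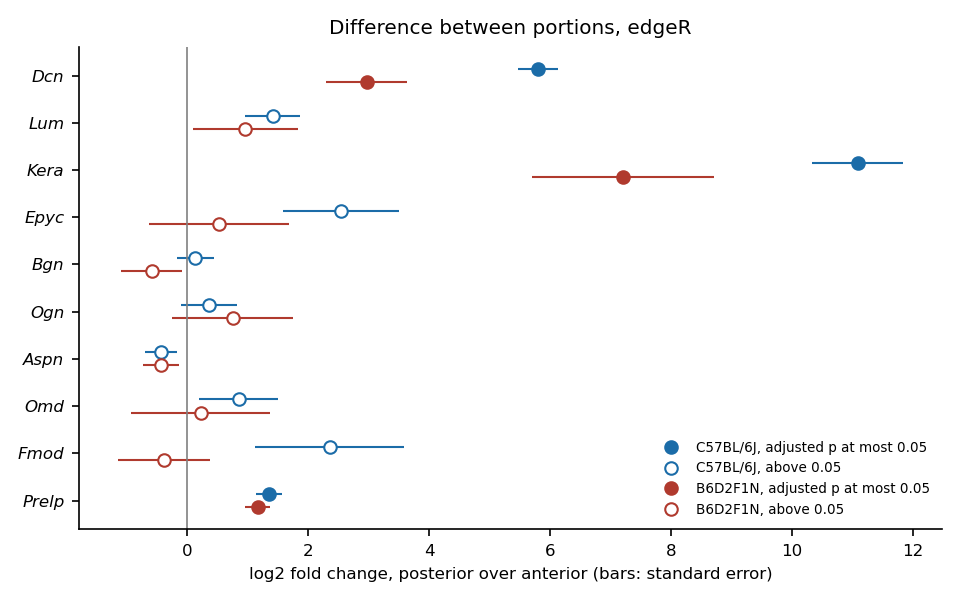
Log2 fold change of each gene, posterior over anterior, with its standard error, in 6 C57BL/6J mice (blue) and 10 B6D2F1N mice (red), edgeR. Filled points (Dcn, Kera and Prelp in both strains) have an adjusted p of at most 0.05.

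Dcn was low in every anterior library. It had 11.1, 18.9, 23.0 and 33.1 CPM in the 4 C57BL/6J standard mice and 17.2 and 38.5 CPM in the 2 C57BL/6J enriched mice. In the 5 anterior libraries of each housing, B6D2F1N mice had 18.1 to 38.4 CPM (standard, median 33.3) and 11.2 to 45.7 CPM (enriched, median 20.7). All 4 groups overlapped.
In the posterior portion, the C57BL/6J standard mice had 912, 1330, 1476 and 1759 CPM and the C57BL/6J enriched mice 172, 699, 773 and 1381 CPM. All 8 libraries thus lay above every anterior one. The B6D2F1N enriched mice also did, with 174.6 CPM in the lowest, 665.7 CPM as the median and 1077 CPM in the highest of 6 libraries. The B6D2F1N standard mice were split, since mouse 1 had 1661 CPM, whereas mice 2 to 5 had 56.1, 52.9, 8.72 and 40.5 CPM, which is within or close to the range of the anterior libraries. In the judgement bias test, mouse 1 was classed as a pessimist and mice 3, 4 and 5 as optimists, while mouse 2 was not classified. The bias class was not used in any comparison.
Dcn was higher in the posterior portion of 6 of 6 C57BL/6J mice, with a mean of 1272 ± 367 CPM against 23.7 ± 10.3 CPM (SD, n = 6), and the strain's portions did not overlap. The log2 fold change was 5.80 (standard error, SE, 0.327, edgeR adjusted p = 9.45e-09). In B6D2F1N mice, Dcn was higher in 9 of 10, with 482 ± 547 CPM against 28.1 ± 12.7 CPM (SD, n = 10), and its log2 fold change was 2.97 (SE 0.672, edgeR adjusted p = 0.0145). Without mouse 1 of the B6D2F1N standard group it was 2.62 (edgeR adjusted p = 0.0371). Within the housings, which was looked at after the values were seen, the B6D2F1N log2 fold change was 4.39 in the 5 enriched mice (SE 0.401, edgeR adjusted p = 7.77e-05) and 1.10 in the 5 standard mice (SE 0.68, edgeR adjusted p = 0.727). It was 6.06 in the 4 C57BL/6J standard mice (SE 0.345, edgeR adjusted p = 8.01e-07).

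**Figure D3:**
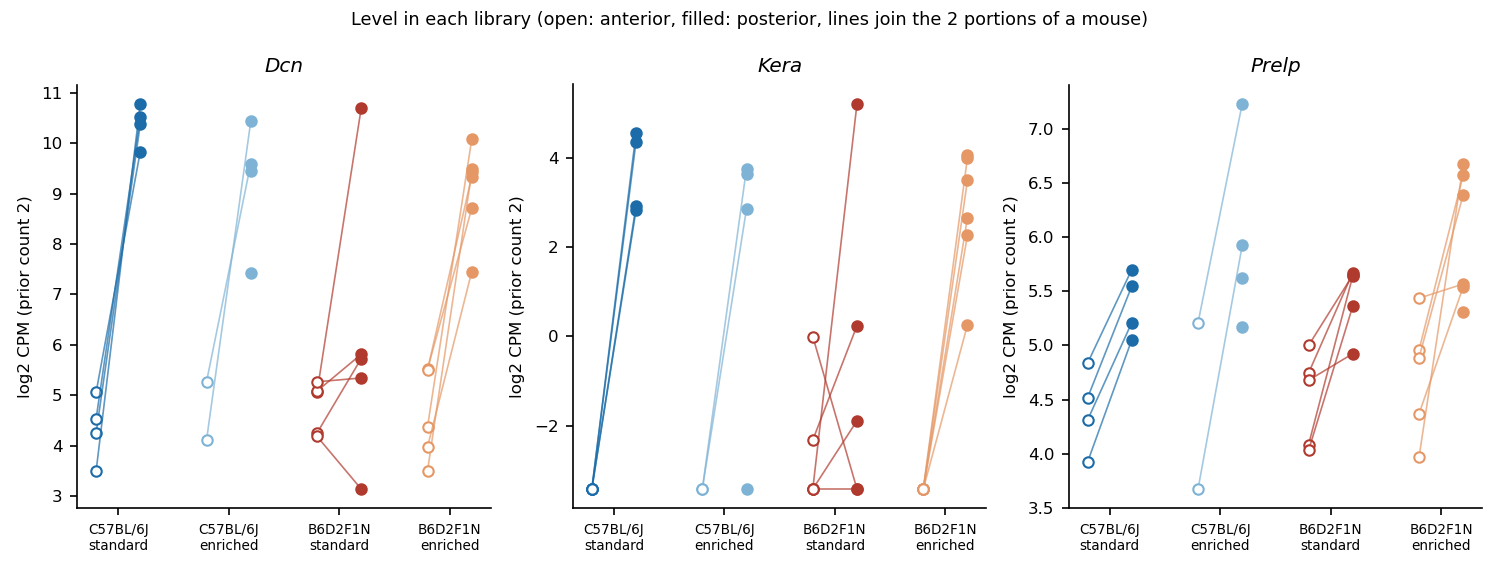
Dcn, Kera and Prelp as log2 CPM (prior count 2) in each library, by strain and housing, with lines joining the anterior (open) and posterior (filled) library of a mouse. Of the 5 B6D2F1N standard mice, 1 had high posterior levels of Dcn and Kera, and Prelp was higher in the posterior portion of all 16 mice.

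Keratocan, a keratan sulfate proteoglycan best known from the transparent stroma of the cornea, was found almost only where Dcn was high. Kera had 0 counts in all 6 anterior libraries of C57BL/6J mice and in 8 of the 10 anterior libraries of B6D2F1N mice. The other B6D2F1N anterior libraries, standard mice 3 and 4, had 0.107 and 0.904 CPM.
In the posterior portion, Kera was at 6.99, 7.49, 20.4 and 23.2 CPM in the C57BL/6J standard mice and at 0, 7.14, 12.3 and 13.4 CPM in the C57BL/6J enriched mice. The library at 0 counts, C57BL/6J enriched mouse 2, was also the lowest of its group in Dcn and had no anterior library. The B6D2F1N enriched mice had 1.10 to 16.6 CPM (median 8.71, n = 6). Among the B6D2F1N standard mice, mouse 1 had 36.8 CPM and mice 2 to 5 had 0.177, 1.09, 0 and 0 CPM.
In C57BL/6J mice, Kera was thus at least 84.5-fold higher in the posterior portion, set against the 3 counts per library that a count of 0 allows (6 of 6 mice, edgeR adjusted p = 2.66e-06). In B6D2F1N mice it was higher in 8 of 10 mice and lower in 1, with means of 7.73 ± 11.6 and 0.101 ± 0.284 CPM (SD, n = 10) and an edgeR adjusted p of 0.00935. DESeq2 did not call it there (adjusted p = 0.124), and the value without mouse 1 was 0.0371 in edgeR. Within the enriched B6D2F1N mice the edgeR adjusted p was 0.00203, and within the standard ones 0.755.

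PRELP, a relative of fibromodulin with a basic amino-terminal stretch that binds heparan sulfate, was present in every library of both portions. In the anterior portion, Prelp had 15.1, 19.8, 22.8 and 28.5 CPM in C57BL/6J standard and 12.7 and 36.9 CPM in C57BL/6J enriched mice. The posterior values of this strain were 33.1, 37.0, 46.7 and 51.9 CPM in standard and 35.9, 49.1, 60.6 and 149.9 CPM in enriched housing. The portions overlapped only through the anterior library of C57BL/6J enriched mouse 3, whose posterior library was the highest of all.
In B6D2F1N standard mice, Prelp had 16.3 to 31.9 CPM (anterior, median 25.5, n = 5) and 30.3 to 50.9 CPM (posterior, median 49.8, n = 5). In the enriched mice it had 15.6 to 43.2 CPM (anterior, n = 5) and 39.5 to 101.8 CPM (posterior, n = 6), so that both housings overlapped slightly between the portions. Prelp was higher in the posterior portion of 6 of 6 C57BL/6J mice (log2 fold change 1.35, SE 0.215, edgeR adjusted p = 0.000908) and of 10 of 10 B6D2F1N mice (1.17, SE 0.207, edgeR adjusted p = 0.00261). Without B6D2F1N standard mouse 1 the second value was 1.22 (edgeR adjusted p = 0.00579), and the log2 fold change was 0.96 (SE 0.23, edgeR adjusted p = 0.0893) within the B6D2F1N standard mice and 1.41 (SE 0.303, edgeR adjusted p = 0.025) within the enriched ones.
Markers of the choroid plexus, the secretory epithelium of the ventricles, also differed between the portions. Of 8 such genes, 4 were higher in the posterior portion in C57BL/6J and 7 in B6D2F1N mice, none lower, among them Ttr, which encodes the thyroxine carrier transthyretin, with log2 fold changes of 6.46 and 7.48 (edgeR adjusted p = 1.38e-05 and 3.32e-05). The sum of the 8 genes was 462.3 to 2614 CPM in the anterior and 801 to 20730 CPM in the posterior libraries. It was highest in the posterior libraries of B6D2F1N enriched mice 1 (16930 CPM) and 3 (20730 CPM), in which Prelp was at 94.9 and 101.8 CPM. The next highest sums, 4975 and 4951 CPM in the posterior libraries of B6D2F1N standard mice 4 and 5, came with Prelp at 41.0 and 50.1 CPM. In C57BL/6J enriched mouse 3, with the highest Prelp, the sum was 2362 CPM. Dcn was at 685 and 174.6 CPM in the libraries with the highest sums, and the 4 C57BL/6J standard mice, with Dcn of 912 CPM and more, had sums of 874 to 1959 CPM. Of 8 markers of ependymal cells, which line the ventricles, 2 were higher in the posterior portion in C57BL/6J and 5 in B6D2F1N mice, and none lower. Their sum was highest in the posterior libraries of B6D2F1N enriched mouse 1 (227.6 CPM) and C57BL/6J enriched mouse 3 (212.8 CPM). B6D2F1N standard mouse 3 came next (145.9 CPM), with Prelp at 49.8 CPM. Both lists were among those set against Dcn over the mice further on, and neither was called by Pearson's r on the log2 scale. Beyond this, the part of these cells in the levels of Prelp, Dcn and Kera was not tested.

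The other neighbours of Dcn on chromosome 10 did not pass the threshold. Lumican, a keratan sulfate proteoglycan of collagen-rich tissues, had medians of 4.41 CPM (anterior) and 11.2 CPM (posterior). Lum was higher in the posterior portion of 6 of 6 C57BL/6J mice, at 14.1 ± 6.33 against 5.33 ± 3.00 CPM (SD, n = 6), and its log2 fold change was 1.42 (SE 0.453, edgeR adjusted p = 0.109). DESeq2 called it (adjusted p = 0.0327), as did edgeR without a minimum count (adjusted p = 0.00908). In B6D2F1N mice it was higher in 6 of 10 (log2 fold change 0.97, SE 0.862, edgeR adjusted p = 0.642). Epyc, whose product epiphycan is known from growth plate cartilage, had at most 4.73 CPM in any library, with log2 fold changes of 2.55 (SE 0.959) and 0.53 (SE 1.16) and edgeR adjusted p-values of 0.199 and 0.881.

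The remaining genes did not pass the threshold either and, apart from Aspn, were low and variable in both portions. Biglycan, the nearest relative of decorin, had medians of 9.58 and 8.60 CPM (anterior, posterior), with Bgn log2 fold changes of 0.14 (SE 0.311) and -0.58 (SE 0.507) in C57BL/6J and B6D2F1N mice. Asporin, which lacks the sulfated chain of its relatives, had medians of 14.8 and 11.5 CPM, and Aspn was lower in the posterior portion of 5 of 6 and 9 of 10 mice. Its log2 fold changes were both -0.43 (SEs 0.264 and 0.296, edgeR adjusted p = 0.552 and 0.528). With B6D2F1N enriched mouse 2 left out, Aspn passed the threshold in that strain (log2 fold change -0.68, edgeR adjusted p = 0.0486).
Ogn, whose product osteoglycin is also called mimecan, had medians of 2.33 and 3.55 CPM and was higher in the posterior portion of 3 of 6 and 6 of 10 mice. Omd, which encodes osteomodulin, known from bone, had medians of 0.937 and 1.02 CPM. Fmod, the gene of the fibril-binding keratan sulfate proteoglycan fibromodulin, had medians of 2.98 and 2.00 CPM, with 41.1 CPM in the anterior library of B6D2F1N enriched mouse 3. The edgeR adjusted p-values of Bgn, Ogn, Omd and Fmod lay between 0.443 and 0.956 over both strains. A difference in these 4 genes was not detectable over the spread between the mice.

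Whether the portion difference itself differed between the strains or the housings was tested with interaction terms over the 16 mice. The term for housing was adjusted for strain, but the term for strain was not adjusted for housing, which was unevenly spread over the strains. With edgeR, 0 of the 10 genes passed for strain and 0 for housing, as did 0% of the 29437 genes tested (871 and 888 of which had an unadjusted p under 0.05). DESeq2 called 0 members in both. With edgeR, an unadjusted p under 0.05 was seen for Dcn by strain, with a smaller difference in B6D2F1N mice (-2.83 on the log2 scale, SE 0.852, unadjusted p = 0.00254, edgeR adjusted p = 1). By housing, the edgeR terms with an unadjusted p under 0.05 were those of Dcn (1.82, SE 0.752), Kera (6.27, SE 2.63) and Prelp (0.72, SE 0.288). Each was positive (larger difference in enriched mice) with an adjusted p of 1, and was fitted over both strains together. In C57BL/6J mice alone, the log2 ratio of Dcn was 4.78 to 7.30 in standard and 6.33 and 4.33 in enriched mice. Posterior Kera was 6.99 to 23.2 CPM against 13.4 and 7.14 CPM in these mice. A larger difference in enriched mice was thus not seen there for Dcn and Kera, but was for Prelp (0.87 to 1.13 against 2.26 and 2.02). Only 1 member had an unadjusted p under 0.05 by housing with DESeq2, and 1 in edgeR with another count filter (filterByExpr). It was 3 in edgeR with the size factors of DESeq2 or with no minimum count. Without B6D2F1N standard mouse 1, the term for Dcn was -3.20 by strain and 2.34 by housing, and that for Kera 8.77 by housing, each still with an edgeR adjusted p of 1. Over the omission of each of the 16 mice, the terms by housing ranged from 1.31 to 2.51 (Dcn), 2.91 to 8.77 (Kera) and 0.53 to 0.94 (Prelp), and that of Dcn by strain from -3.21 to -2.42. The lowest terms by housing of Dcn and Kera were those without B6D2F1N standard mouse 4, where the unadjusted edgeR p was 0.0739 and 0.0853, and without mouse 3 that of Kera was 0.0833.

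Between the strains, 0 of the members passed the threshold in any of the 4 comparisons, in edgeR or DESeq2. Over all genes, 0.37% and 0.373% were called in the anterior and posterior portions in standard housing, and 0.0639% and 0.394% in enriched housing. At an unadjusted p under 0.05, edgeR gave 2187 of 24305, 2605 of 25171, 1016 of 23459 and 2336 of 25640 genes in the same order. Among the members these were 2, 3, 0 and 0. All 10 were tested except Kera in the anterior portion in enriched housing, where it had 0 counts in every library. The comparison of the posterior portion in standard housing rested on mouse 1. With it, the log2 fold change of Dcn, B6D2F1N over C57BL/6J, was -1.91 (SE 1.06, edgeR adjusted p = 0.582). Without it, Dcn was lower in B6D2F1N mice, at -5.08 (SE 0.505, edgeR adjusted p = 0.000276), as was Kera at -5.41 (SE 1.02, edgeR adjusted p = 0.0294). The 4 C57BL/6J libraries, at 912 CPM and more, and the 4 remaining B6D2F1N ones, at 56.1 CPM and less, then did not overlap. In enriched housing the posterior levels of Dcn overlapped widely (log2 fold change -0.29, SE 0.468, edgeR adjusted p = 0.935), and so did the anterior ones of both housings.

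Between the housings, 0 members passed in any of the 4 comparisons, in edgeR or DESeq2. Over all genes, edgeR called 0% and 0.0163% in the anterior and posterior portions of C57BL/6J mice and 0% and 0% in those of B6D2F1N mice (1418, 2515, 1553 and 1716 genes at an unadjusted p under 0.05). Among the members, of which Kera was not tested in the first comparison (0 counts in every library), 0, 2, 1 and 1 had an unadjusted p under 0.05 in these comparisons. In the posterior portion of B6D2F1N mice, Dcn had a log2 fold change, enriched over standard, of 0.75 (SE 0.963, edgeR adjusted p = 0.999). Without mouse 1 it was 3.92 (SE 0.564, edgeR adjusted p = 0.0253), and Kera was at 4.75 (SE 1.1, edgeR adjusted p = 0.339). The lowest of the 6 enriched libraries had 174.6 CPM of Dcn and the highest of the 4 remaining standard ones 56.1 CPM. In C57BL/6J mice the difference was in the other direction and did not pass (Dcn -0.84, SE 0.431, edgeR adjusted p = 0.502).

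Fibroblast genes were set beside Dcn first. The 15 markers, among them the collagen genes Col1a1, Col1a2 and Col3a1, were at most 69.0 CPM in any library. In C57BL/6J mice, in which Dcn had its log2 fold change of 5.80, 0 of the 14 markers tested passed the threshold with edgeR, and their median log2 fold change was 0.23 (0.01 over all genes). In B6D2F1N mice, Col5a1, a minor fibrillar collagen chain (3.43, edgeR adjusted p = 0.0286), and Aebp1, a collagen-binding protein (2.35, edgeR adjusted p = 0.0441), were higher and Mfap4, a microfibril-associated protein (-1.91, edgeR adjusted p = 0.0373), was lower in the posterior portion, with a median of 0.44 (0.15 over all genes). The medians of Col1a1 were 1.23 CPM (anterior) and 1.75 CPM (posterior) and those of Col1a2 7.46 and 7.57 CPM.
Excitatory neuron genes differed in both directions. Tbr1, Neurod6 and Slc17a7, the gene of the vesicular glutamate transporter VGLUT1, were lower in the posterior portion of both strains, with log2 fold changes of -2.25, -2.31 and -1.22 in C57BL/6J and -2.38, -1.70 and -1.32 in B6D2F1N mice. Slc17a6, which encodes VGLUT2, was higher in both (1.58 and 1.38, edgeR adjusted p = 0.0198 and 0.00265). Over the list of 10, 1 gene was higher and 3 were lower in C57BL/6J mice (median -0.43), and 1 was higher and 4 were lower in B6D2F1N mice (median -0.90). Of 10 inhibitory neuron genes, 0 were higher and 3 lower in C57BL/6J mice (Pvalb, Vip and Lamp5), and 0 higher and 1 lower (Vip) in B6D2F1N mice. The other neuron lists did not share 1 direction. Of 4 genes of CA1 pyramidal neurons, 1 was higher in C57BL/6J mice (median 0.72) and 0 passed in B6D2F1N mice (median 0.42). Of 8 genes of striatal projection neurons, 1 was lower in C57BL/6J (median -0.53) and 1 higher in B6D2F1N mice (median 0.50). Of 8 genes of layer 6b and endopiriform neurons, 1 was higher and 1 lower in C57BL/6J mice (median -0.13), and 0 passed in B6D2F1N mice (median -0.10).

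Over the mice, the log2 CPM of Dcn was set against the mean log2 CPM of each of 13 lists of cell type markers and against the other members, and the members against the fibroblast list, within each portion (60 relations, permutation test with 100000 resamples, two-sided, Benjamini-Hochberg adjustment over all of them). The 19 posterior libraries fall apart into the 4 low B6D2F1N standard ones and the rest, so that the value over the 14 libraries of the other groups is given beside the one over all 19. With the fibroblast list, Pearson's r of Dcn was 0.167 (Spearman's rho -0.009, adjusted p = 0.646 and 0.975) over 19 and -0.372 (rho -0.314, adjusted p = 0.502 and 0.566) over 14 posterior libraries. Over the 16 anterior libraries it was 0.127 (rho 0.109, permutation adjusted p = 0.767 and 0.875). With the excitatory neuron list it was -0.197 over 19, 0.216 over 14 and -0.095 over the 16 anterior libraries (permutation adjusted p = 0.573, 0.665 and 0.805). Dcn was therefore not shown to follow either list. The excitatory list holds genes that differed in opposite directions between the portions. Its mean therefore cannot tell whether Dcn goes with 1 kind of excitatory neuron.
With the endothelial list, r was 0.75 (rho 0.812, permutation adjusted p = 0.0042 and 0.0012) over 19 posterior libraries and 0.746 without the 2 mice farthest from the median (permutation adjusted p = 0.0162). Over the 14 libraries r was 0.554 (rho 0.723, permutation adjusted p = 0.294 and 0.0948), so that the call did not hold there, and over the 16 anterior ones 0.321 (permutation adjusted p = 0.404). None of the 10 endothelial genes differed between the portions in either strain at the threshold. In the anterior libraries, Dcn was lower where the list of layer 6b and endopiriform neurons was higher (r = -0.64, rho -0.659, permutation adjusted p = 0.0372 and 0.0676), and r was -0.712 without the 2 mice farthest from the median (permutation adjusted p = 0.0471).
Kera was the member that followed Dcn. Over the 19 posterior libraries r was 0.905 (rho 0.895, permutation adjusted p = 0.0012 and 0.0006), and over the 14 libraries 0.852 (rho 0.776, permutation adjusted p = 0.0078 and 0.0522). Without the 2 mice farthest from the median it was 0.94 over 17 and 0.631 over 12 libraries (permutation adjusted p = 0.0006 and 0.3), so that the call within the 14 libraries rests on those 2 mice. Lum, which lies between both genes, had r = 0.415 with Dcn over 19 (rho 0.542, permutation adjusted p = 0.232 and 0.138) and -0.009 over 14 libraries. The fibroblast list was followed by Ogn in the posterior portion (r = 0.621, rho 0.707, permutation adjusted p = 0.0372 and 0.0214), with r = 0.738 without the 2 mice farthest from the median and 0.559 over the 14 libraries (permutation adjusted p = 0.0129 and 0.294). Lum followed it in the anterior portion by Pearson's r alone (r = 0.695, rho 0.459, permutation adjusted p = 0.0362 and 0.237), which rests on the 2 mice farthest from the median (r = 0.569 without them, permutation adjusted p = 0.128).

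**Figure D4:**
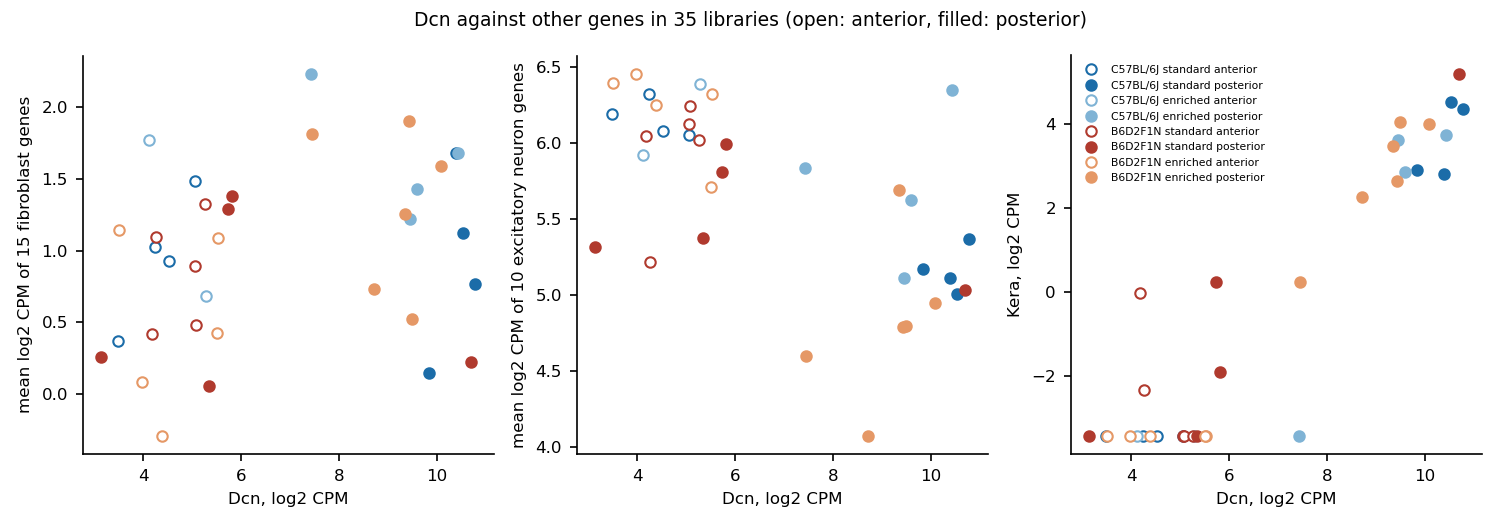
Log2 CPM of Dcn in 35 libraries against the mean log2 CPM of 15 fibroblast genes, of 10 excitatory neuron genes, and against Kera, with anterior libraries open and posterior ones filled. In the posterior libraries Kera rises with Dcn (r = 0.905, n = 19), while r with the fibroblast genes is 0.167.

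Among the 16022 genes other than Dcn with a mean of at least 1 CPM, those most like Dcn over all 35 libraries were Kera (Pearson's r = 0.927), Olig3 (0.921), Efnb3 (0.88), Tmem255a (0.837), Myh7 (0.833), Galnt16 (0.829), Fibin (0.824) and Rxfp3 (0.817). Olig3 is a transcription factor of progenitors in the neural tube, Efnb3 encodes an ephrin ligand and Rxfp3 the receptor of relaxin-3. Olig3 had medians of 0 and 3.41 CPM (anterior, posterior), Myh7 7.64 and 55.3 CPM and Rxfp3 2.69 and 38.4 CPM. Both portions enter this measure, and 16 mice gave a library to each. Prelp came at rank 156 (r = 0.641), Lum at rank 550 (0.501) and Bgn at rank 5299 (0.151).
Within the 19 posterior libraries, after the mean of each strain and housing group was taken off, the most similar of 16143 genes included Ccn3 (0.925), Ptprc (0.91), Glipr1 (0.896), Kera (0.895), Cnr1 (0.892), Slc7a3 (0.89) and Elfn1 (0.888). Kera was the gene on both lists. Aspn came at rank 640 (r = 0.568), Lum at rank 3569 (0.241) and Prelp at rank 5906 (0.097). Both rankings are descriptions with no test, and the second includes the 1 high and 4 low B6D2F1N standard libraries.

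Genes whose products make, modify or bind SLRPs or belong to collagen fibrils were counted in the same portion fits, in which 3.64% and 4% of all genes passed. Of 18 genes of fibrillar collagens and their processing, 0 were higher and 2 lower in the posterior portion of C57BL/6J mice (Col5a2, log2 fold change -2.02, and the cross-linking enzyme gene Lox, -6.17, with edgeR adjusted p = 0.00316 and 0.039), and 1 was higher (Col5a1) and 1 lower (Col5a2, -1.88, edgeR adjusted p = 0.00385) in B6D2F1N mice. Of 22 genes for the synthesis of chondroitin and dermatan sulfate, 21 were tested. Chst15, a sulfotransferase, was lower in both strains (-1.80 and -1.30, edgeR adjusted p = 0.000311 and 0.00334), and Dse, the epimerase that makes dermatan sulfate, was lower in B6D2F1N mice (-0.90, edgeR adjusted p = 0.0338).
Of 12 genes for keratan sulfate, 0 passed in C57BL/6J mice and 1 was lower in B6D2F1N mice (Chst1, -0.64, edgeR adjusted p = 0.028). Of 17 growth factors and receptors that SLRPs bind, Tgfb2 (0.85), Tgfbr3 (1.38) and Met (4.29), the receptor of hepatocyte growth factor, were higher in the posterior portion of C57BL/6J mice (edgeR adjusted p = 0.00772, 0.00312 and 0.03), and 0 passed in B6D2F1N mice. Of 8 other proteoglycan genes with leucine-rich repeats, 0 passed in C57BL/6J mice and Chad (chondroadherin) was higher in B6D2F1N mice (4.91, edgeR adjusted p = 0.0341). The median log2 fold changes of these 5 lists ranged from -0.04 to 0.46 for C57BL/6J mice and from -0.25 to 1.08 for B6D2F1N mice.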

How the data were processed

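Poly(A) RNA of laser-captured cells was sequenced from 35 libraries of 19 mice. The deposited values were raw counts of reads per gene, which the authors had made with bcl2fastq, FastQC 0.11.7, Trimmomatic 0.38, HISAT2 2.1.0, SAMtools 1.8 and HTSeq 0.11.2 on mm10 (GRCm38), per the labels and the study's methods. The annotation release and the strand setting of the counting were not given in the sources used here. Rows that name no gene were left out of library sizes and tests. Gene positions, exon lengths and the sequence stretches came from GENCODE M21 (GRCm38), which held 52489 of the 52636 genes.

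Genes with at least 10 counts over the libraries of a comparison were tested with edgeR 4.0.16 in R 4.3.3 (TMM, quasi-likelihood F test, Benjamini-Hochberg adjustment over all genes tested, threshold 0.05). Portions were compared within mice, with the mouse as a block, since both libraries came from the same animal, and strains and housings between mice of 1 portion. As a check of the pairing, deviations from the group means over 16023 genes had a median correlation of 0.0482 (-0.105 to 0.221) between the libraries of the same mouse and of -0.0174 between mice. Deviations from a group mean cancel within the group, so the second value is not independent of the first. The check therefore cannot decide on the pairing, which follows the labels. Levels are CPM with TMM scaling, and for correlations log2 CPM with a prior count of 2. Stretches were matched with bwa 0.7.19-r1273. DESeq2 1.42.0, its size factors, other count minimums, no block and the omission of each mouse were alternatives. The tests were tried on simulated counts first.

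The 10 genes and all lists were chosen with earlier results of these data known. Named were the 10 genes, up to 4 genes per list past the threshold between the portions, the 8 genes most like Dcn in each ranking (1 of them is not reported here), and Xist and 4 Y-linked genes as a check of the labels. Whether the mice of a group shared a litter or a day was not used.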

Additional observations from a re-analysis of the deposited data

Results flagged for a closer look

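In groups of 4 to 10 libraries, the highest or lowest CPM of a gene was compared with the others by Dixon's test. Of 68 sets tested 9 stood out, where chance gives about 1 in 20 for normally distributed values. CPM cannot fall below 0, and all 9 were highest values, so that an excess over chance was not shown. In the posterior portion of B6D2F1N standard mice, mouse 1 had 1661 CPM of Dcn (next 56.1), 36.8 CPM of Kera (next 1.09) and 29.4 CPM of Aspn (next 12.3). This is the mouse with 0 counts of Xist. In the anterior portion of the same group, mouse 4 had 0.904 CPM of Kera (next 0.107) and mouse 5 had 10.3 CPM of Fmod (next 2.94). Among B6D2F1N enriched mice, the anterior library of mouse 3 had 41.1 CPM of Fmod (next 5.70) and that of mouse 2 had 9.17 CPM of Ogn (next 1.18). Among C57BL/6J enriched mice, the posterior library of mouse 2 had 11.6 CPM of Ogn (next 4.83) and that of mouse 3 had 1.34 CPM of Omd (next 0.70). The causes were not tested.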

How the results depend on the processing

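With DESeq2, its size factors, filterByExpr or no minimum count, the 10 genes gave 3 or 4 calls between the portions in C57BL/6J and 2 or 3 in B6D2F1N mice (main 3 and 3), and 0 in every other comparison. Without the replicate block, 3 were called in each strain (706 and 1172 genes in all, against 937 and 1110). With only standard housing, an alternative chosen after seeing the data, 0 were called in B6D2F1N mice (198 of 25338 genes in all), and 3 with only enriched housing (521 genes). Leaving out each mouse gave 0 to 2 calls between the strains in the posterior portion in standard housing and 0 to 1 between the housings in the posterior portion of B6D2F1N mice, both highest without B6D2F1N standard mouse 1, where calls over all genes also rose, from 94 to 166 of 24900 and from 0 to 10 of 25843. The log2 fold change of Kera between these housings then ranged from -0.0499 to 4.75. It gave 3 to 4 and 3 to 3 calls between the portions in B6D2F1N and C57BL/6J mice, and 0 elsewhere.

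Of the marker lists, 2 were called with Dcn by Pearson's r, 1 on the CPM scale, and 0 without the B6D2F1N standard group, with or without the 2 mice farthest from the median (both chosen after seeing the data). Pearson's r of Dcn with the fibroblast list in the posterior portion turned to -0.033 on the CPM scale, -0.145 with group means removed, -0.372 without that group and -0.138 without it and those 2 mice (anterior -0.091). With excitatory neurons it turned to 0.146 on the CPM scale and 0.216 without that group. None of these values was called.

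Over all genes, DESeq2 called 1535 and 1994 genes between the portions, 254, 392, 137 and 342 between the strains (edgeR 90, 94, 15 and 101) and 100, 319, 8 and 13 between the housings (edgeR 0, 4, 0 and 0). With no minimum count, edgeR called 57 between the strains in the anterior portion in enriched housing, 274 and 112 between the housings of C57BL/6J mice and 2 for portion by strain, and DESeq2 called 1 for portion by housing (edgeR 0 and 0). The causes were not tested. Kera, Epyc and Omd at a few CPM are limited by depth, and 2 libraries in the anterior C57BL/6J enriched group limit its comparisons.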
